A study of Mus musculus with 22 samples.

Results

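The genes described here encode the potassium channels of the mouse and their partner subunits. They were chosen by a rule on symbols that held no measured values, though it was set with earlier results of these data known. The rule took genes with a probe set that carried a single platform symbol beginning with Kcn and a further letter. This gave 88 genes, measured by 90 probe sets, of the 18704 genes on the array. Of the 88, 85 encode channel subunits. The other 3 are Kcnrg, a regulator of potassium channels, and the opposite-strand transcripts Kcnmb4os1 and Kcnmb4os2.

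Total RNA of the hypothalamus, the brain region that sets food intake and body temperature, was measured on 22 Affymetrix arrays from lean male C57BL/6J mice. They were 8 weeks old and had been kept for 2 weeks on a normal chow diet. Celastrol, a plant triterpenoid that lowers food intake in obese mice, or its vehicle dimethyl sulfoxide (DMSO) was given into the peritoneum, and tissue was taken after 6 h, 1 day or 4 days. DMSO, at 25 µl per day, had 4 arrays at each time. Celastrol had 4 arrays at 6 h, at 250 µg per kg, 3 at 1 day and 3 at 4 days. The labels list 100 µl in 25 µl DMSO per day for the longer courses and give no dose there. All groups therefore carried DMSO, and untreated mice were not analysed here. The labels call the arrays biological replicates and do not say whether any pooled animals.

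Potassium channels let potassium leave the cell and so set the resting potential, the length of the action potential and the rate of firing. Voltage-gated (Kv) channels are assembled from pore-forming subunits, of which the Kv5, Kv6, Kv8 and Kv9 subunits are silent: they form no channel alone and alter Kv2 channels. Inward rectifiers (Kir) hold the resting potential, and those of the KATP type couple neuronal firing to glucose in the hypothalamus. K2P (tandem-pore) channels carry leak current, and channels gated by calcium or sodium follow activity. Kv beta subunits, KChIP proteins, BK beta subunits and KCNE proteins bind the pores and change their gating or their transport to the membrane.

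The start regions of 67 of the 88 genes could be matched by symbol in the RefSeq annotation of GRCm38.p6. In the 250 bases upstream of the start, CG pairs numbered 11 in the median over the 38 matched genes that passed the level filter described below, 7 over the 29 that did not, and 6 over all 27025 genes of that table. At least 10 CG pairs were found in 55.3% of the genes that passed, in 31.0% of those that did not and in 38.2% of all. The GC box, searched as GGGCGG or CCGCCC so that both strands were covered and allowing overlap with CG pairs, was found in 57.9%, 41.4% and 32.9%. TATAAA or its reverse complement TTTATA was found in 1 of the 38 (Kcnj9), in 0 of the 29 and in 3504 of all 27025. CG pairs are sparse in most of the mammalian genome and dense at many gene starts. A set of 3 lengths of 250 bases show the span, with the CG pairs in capitals: Kcng3, which had the largest log2 difference at 1 day, with 41 pairs (chr17:83631896-83632145, minus strand), Kcnj10, a bright glial gene, with 17 (chr1:172340960-172341209, plus strand), and Kcnj15, which did not pass the filter, with 1 (chr16:95257308-95257557, plus strand).
Kcng3: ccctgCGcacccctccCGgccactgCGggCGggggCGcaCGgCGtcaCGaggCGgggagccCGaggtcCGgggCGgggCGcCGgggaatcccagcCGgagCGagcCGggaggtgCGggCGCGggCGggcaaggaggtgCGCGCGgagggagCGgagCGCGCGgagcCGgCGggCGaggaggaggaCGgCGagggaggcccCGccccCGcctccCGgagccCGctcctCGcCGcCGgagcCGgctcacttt
Kcnj10: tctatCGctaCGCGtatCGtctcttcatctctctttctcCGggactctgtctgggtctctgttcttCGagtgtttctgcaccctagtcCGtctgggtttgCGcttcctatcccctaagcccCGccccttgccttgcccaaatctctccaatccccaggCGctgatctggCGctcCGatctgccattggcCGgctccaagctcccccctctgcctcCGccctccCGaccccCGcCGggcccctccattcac
Kcnj15: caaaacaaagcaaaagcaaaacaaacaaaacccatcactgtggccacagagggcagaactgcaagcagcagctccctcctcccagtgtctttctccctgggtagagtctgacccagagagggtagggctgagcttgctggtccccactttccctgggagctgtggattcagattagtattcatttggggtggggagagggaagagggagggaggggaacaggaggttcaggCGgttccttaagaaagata
These genes were picked after their values were seen. The matches describe the letters and are not evidence of binding.

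Arrays report the log2 intensity of a probe set, and probe sets differ in how well they bind. The levels below therefore compare a gene with the middle of its own array and do not rank the genes by abundance. A gene was tested if it was above its array's median, which lay between 8.58 and 8.66, in at least 3 of the 22 arrays. By this rule 49 of the 88 genes were tested and 39 were dim.

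In the DMSO arrays, the subunits that form fast A-type and delayed currents were well represented. All 3 Kv4 genes and all 3 Kv3 genes were above the median in all 12 DMSO arrays. Kcnd2, a Kv4 pore of dendritic A-type current, ran from 11.73 to 11.94 with a median of 11.84, and Kcnd1 from 8.61 to 8.91 with a median of 8.78. The Kv3 gene Kcnc1, which serves fast firing, ran from 10.17 to 10.58 (median 10.47), and Kcnc4 from 10.08 to 10.32 (median 10.21). Of the 8 Kv1 genes 5 were tested: Kcna2, an axonal subunit, ran from 11.15 to 11.39 (median 11.27), while Kcna7 ran from 6.81 to 7.46 (median 7.11) and was dim. Kcnb2, a Kv2 gene, ran from 9.58 to 9.88 (median 9.76).

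Of the 9 silent Kv subunits 5 were tested and 3 were above the median in all DMSO arrays. Kcng1 ran from 8.92 to 9.22 (median 9.03), and Kcnv2 from 7.03 to 7.31 (median 7.14). Among the Kv7 genes, which carry the M-current that damps repetitive firing, Kcnq3 ran from 10.26 to 10.58 (median 10.42). Kcnq1, known from heart and epithelia, ran from 7.40 to 7.68 (median 7.59) and was dim. Of the 7 ether-a-go-go genes (Kv10 to Kv12) 4 were tested, with Kcnh5 from 10.30 to 10.62 (median 10.48) and Kcnh3 from 8.06 to 8.34 (median 8.20).

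Of the 8 channels gated by calcium or sodium 5 were tested, all above the median in every DMSO array. Kcnma1, the BK pore, ran from 10.98 to 11.18 (median 11.11), and Kcnu1, a channel of sperm, from 6.54 to 6.85 (median 6.72). A second probe set assigned to Kcnma1 had a mean of 5.33 (SD 0.178, n = 12 DMSO arrays) and was not used. The K2P genes split into 7 tested and 6 dim, from Kcnk9, an acid-sensitive leak channel, at 11.27 to 11.71 (median 11.60), to Kcnk18 at 6.40 to 6.81 (median 6.54).

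The inward rectifiers were the family with most dim members: 5 of 14 were tested. Kcnj10, the potassium-clearing channel of astrocytes and oligodendrocytes, ran from 12.01 to 12.14 (median 12.06), and Kcnj1, a kidney channel, from 6.18 to 6.65 (median 6.48). The 3 genes of G-protein-gated channels measured as tested were Kcnj3, Kcnj6 and Kcnj9. Both pore genes of KATP channels were dim: Kcnj11 ran from 8.29 to 8.65 (median 8.40) and Kcnj8 from 8.28 to 8.56 (median 8.47).

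The cytoplasmic partners were represented throughout. All 4 KChIP genes and all 3 Kv beta genes were above the median in all 12 DMSO arrays. Kcnip3, a calcium-binding partner of Kv4 also known as DREAM, ran from 12.24 to 12.44 (median 12.30), and Kcnip2 from 8.97 to 9.19 (median 9.10). Kcnab2 ran from 11.24 to 11.40 (median 11.35), and Kcnab3 from 8.90 to 9.37 (median 9.15). The membrane-spanning partners differed from this: 1 of 4 BK beta genes and 1 of 5 KCNE genes were tested. Kcnmb4, the neuronal BK beta, ran from 8.47 to 8.74 (median 8.59) against 7.55 to 7.86 (median 7.71) for Kcnmb2. Kcne1l ran from 8.85 to 9.14 (median 9.03) against 5.99 to 6.41 (median 6.22) for Kcne3. The plot of DMSO levels by family shows each gene.

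**Figure D1:**
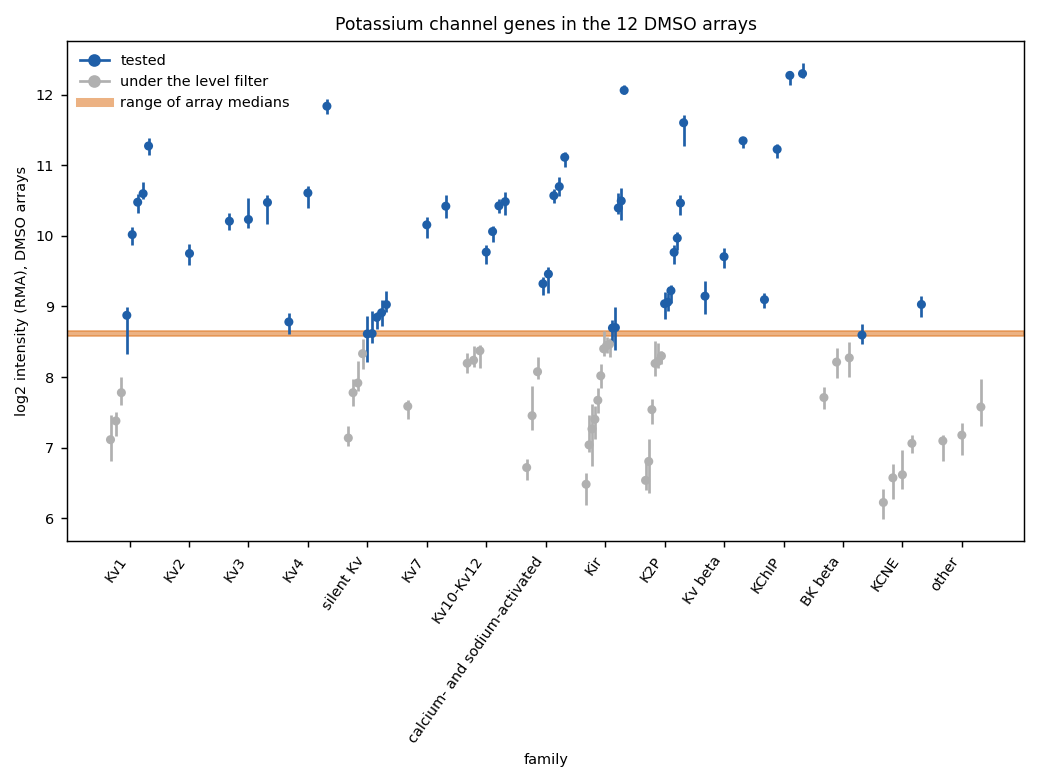
Log2 intensity of the 88 genes in the 12 DMSO arrays, by family (x axis); points are medians and lines run from the lowest to the highest array. Blue genes were tested, grey genes were dim, and the band marks the array medians from 8.58 to 8.66; all KChIP and Kv beta genes lie above it, and 9 of 14 inward rectifiers are grey.

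Of the tissue markers, 14 of 15 hypothalamic genes and 12 of 12 neuronal genes passed the filter, as did 6 of 6 striatal and 7 of 9 thalamic markers, and the mean of the hypothalamic genes ran from 10.65 to 10.94 over the 22 arrays. Neighbouring tissue was present to different degrees. The mean of 9 thalamic markers was between 9.30 and 9.52 in DMSO 6 h replicates 1 and 2, celastrol 6 h replicates 2 and 4 and celastrol 4 days replicate 1, and between 8.70 and 9.12 in the other 17 arrays. The mean of 8 pituitary markers reached 9.75 in DMSO 6 h replicate 4 and 9.48 in celastrol 4 days replicate 2, against 7.68 to 8.75 elsewhere. In whole tissue, fewer cells of a type and less RNA per cell cannot be told apart.

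No potassium channel gene differed between celastrol and DMSO past the threshold at any time. With limma, fitted over all 9880 tested genes with Benjamini-Hochberg adjustment, 0 of the 49 genes were called at 6 h, where the share of all genes called was 0%, at 1 day (0%), at 4 days (0.0506%) and on the average of the 3 times (0.0607%). At an unadjusted p under 0.05 the counts were 0, 3, 3 and 2, or 0%, 6.12%, 6.12% and 4.08% of the 49, against 5.11%, 6.66%, 3.66% and 4% of all tested genes. These shares were near the background. The log2 differences ran from -0.06 to 0.16 at 6 h, from -0.12 to 0.18 at 1 day and from -0.13 to 0.21 at 4 days, with medians of 0.02, 0.03 and 0.01 beside 0.02, -0.01 and 0.01 over all genes. At 1 day the median over the 49 genes was 0.0002 without celastrol replicate 2. The heat map of differences shows no family with 1 colour at all times.

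**Figure D2:**
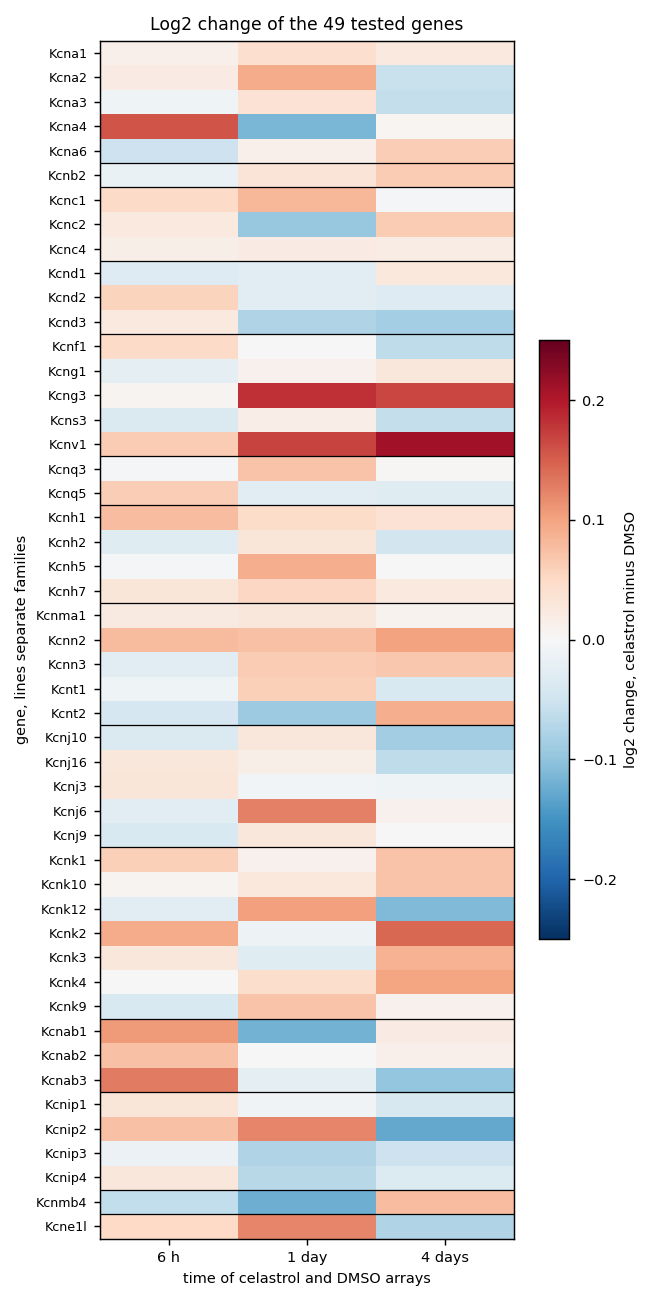
Log2 difference, celastrol minus DMSO, of the 49 tested genes (rows, ordered by family with lines between families) at 6 h, 1 day and 4 days (columns); red is higher and blue lower in celastrol. The deepest red cell is Kcnv1 at 4 days, at 0.21, and the deepest blue one is Kcnip2 at 4 days, at -0.13.

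At 6 h the pore genes were spread around 0. Kcna4, a Kv1 pore of A-type current, was 8.81, 8.99, 8.85 and 8.32 in DMSO and 8.72, 8.93, 8.98 and 8.96 in celastrol, so the difference of 0.16 (SE 0.0961) rests on the low DMSO array. Kcnh1, an ether-a-go-go channel, was higher by 0.08. The lower genes with the smallest p were Kcna6 at -0.05, with 0 of 4 celastrol arrays above the DMSO mean, Kcnmb4 at -0.06, Kcnj10 at -0.04, Kcnh2 at -0.03 and Kcnj9 at -0.04. None of these was called: adjusted p lay between 0.895 and 0.972.

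The 3 genes with the smallest p at 6 h were the Kv beta subunits, which bind Kv1 channels. Kcnab1 was 9.65, 9.62, 9.69 and 9.54 in DMSO and 9.54, 9.85, 9.73 and 9.80 in celastrol. Kcnab2 was 11.34, 11.24, 11.38 and 11.28 in DMSO and 11.30, 11.37, 11.41 and 11.46 in celastrol. Kcnab3 was 8.92, 8.99, 9.19 and 8.90 in DMSO and 8.96, 9.01, 9.30 and 9.27 in celastrol. In each gene 3 of 4 celastrol arrays lay above the DMSO mean and the groups overlapped. The log2 differences were 0.11 (SE 0.0608) for Kcnab1, 0.07 (SE 0.0399) for Kcnab2 and 0.13 (SE 0.0756) for Kcnab3, with adjusted p of 0.895 by limma and exact permutation p of 0.200, 0.171 and 0.200, two-sided.

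The DMSO 6 h means of Kcnab1 and Kcnab3, 9.62 and 9.00, were below the DMSO means of 1 day, 9.79 and 9.20, and of 4 days, 9.74 and 9.16, while the celastrol 6 h means were 9.73 and 9.13. All 3 Kv beta genes were also higher at 6 h after further quantile normalization and after median centring. Their later differences were -0.12, 0.00 and -0.02 at 1 day and 0.02, 0.01 and -0.10 at 4 days. The celastrol 6 h arrays with high thalamic markers, replicates 2 and 4 at 9.52 and 9.42, held the 2 highest Kcnab1 values of that group. In DMSO at 6 h Kcnab1 was 9.65 and 9.62 in the arrays with high thalamic markers and 9.69 and 9.54 in the other 2. Kcnab3 was 9.01 and 9.27 in the celastrol 6 h arrays with high thalamic markers and 8.96 and 9.30 in the other 2. Kcnip4 was 12.34 and 12.38 in those arrays against 12.20 and 12.19 in the other 2, and 12.32 and 12.31 in the DMSO 6 h arrays with high thalamic markers against 12.14 and 12.23. Kcnc2, a Kv3 pore, was further apart, at 10.56 and 10.49 against 10.16 and 10.16 in celastrol at 6 h. In DMSO at 6 h it was 10.41 and 10.53 against 10.18 and 10.15. At 4 days Kcnc2 was 10.54 in celastrol replicate 1, the array with high thalamic markers, against 10.20 and 10.14. Other markers also differed at 6 h: 11 of 12 astrocyte markers were higher in celastrol, with a median of 0.08, 4 of 4 markers of dissociation and stress were higher, with a median of 0.10, and 0 of 5 tested pituitary markers were higher, with a median of -0.35. Of all tested genes 65.4% were higher in celastrol at 6 h, which stands beside these counts and that of the Kv beta genes. The part of other cells or tissue in these values was not tested.

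**Figure D3:**
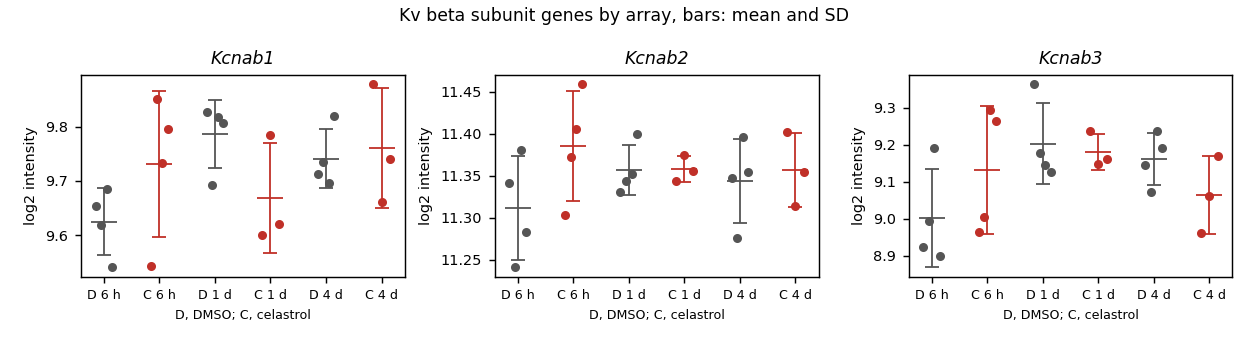
Log2 intensity of Kcnab1, Kcnab2 and Kcnab3 in each array (points), with group mean and SD (bars), for DMSO (D, grey) and celastrol (C, red) at each time. At 6 h the celastrol mean is above the DMSO mean in each panel by 0.07 to 0.13, with overlapping arrays.

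At 1 day the gene with the smallest p was Kcng3, a silent subunit of the Kv6 group. It was 8.73, 9.02, 8.85 and 9.03 in DMSO and 9.10, 9.07 and 9.11 in celastrol, so every celastrol array lay above every DMSO array. The log2 difference was 0.18 (SE 0.0812, 95% interval 0.01 to 0.35; adjusted p 0.720 by limma; exact permutation p 0.0857). Kcnv1, a silent subunit of the Kv8 group, was higher by 0.17 (SE 0.0908), at 8.93, 8.81 and 8.91 against 8.94, 8.49, 8.65 and 8.78, with overlap.

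Among the other pore genes at 1 day, Kcna2 was 11.15, 11.21, 11.27 and 11.24 in DMSO and 11.35, 11.25 and 11.32 in celastrol, a difference of 0.09 (SE 0.0440), with overlap. Kcnh5 was higher by 0.09. Kcnd3, the Kv4 pore whose channels KChIP proteins bind, was 10.60, 10.64, 10.63 and 10.66 in DMSO and 10.60, 10.56 and 10.51 in celastrol. Its celastrol values were all below the DMSO values, though the highest of them was equal to the lowest DMSO value after rounding. The mean was lower by 0.08, with an exact permutation p of 0.0286, the smallest that 3 against 4 arrays can give, and an adjusted p of 0.764 by limma. Groups without overlap were thus seen for 2 of 49 genes, or 4.08%, against 6.17% of all tested genes. At 6 h this held for 0 of 49 genes against 2.76% of all.

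Among the auxiliary genes at 1 day, Kcnip2, a KChIP that carries Kv4 channels to the membrane, was 8.97, 9.10, 9.04 and 9.03 in DMSO and 9.33, 9.07 and 9.07 in celastrol. The difference of 0.12 (SE 0.0556) rests largely on 1 celastrol array, and the exact permutation p was 0.114. Kcnab1 and Kcnmb4 were both lower by 0.12, Kcnip3 by 0.08 and Kcnip4 by 0.07. Adjusted p for all named genes at 1 day lay between 0.720 and 0.788.

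At 4 days, Kcnv1 had the largest difference. It was 8.62, 8.57, 8.60 and 8.61 in DMSO and 8.70, 8.94 and 8.79 in celastrol, without overlap, giving 0.21 (SE 0.0908, 95% interval 0.02 to 0.40). Kcnv1 was close to the level filter: these DMSO values lay near the array medians of 8.58 to 8.66. The 4 DMSO arrays of that time lay closer together than those at 1 day, which ran from 8.49 to 8.94. Kcng3 was 8.85, 8.84, 9.09 and 8.84 in DMSO and 9.08, 9.09 and 9.06 in celastrol, higher by 0.17 (SE 0.0812), with 1 DMSO array at the celastrol level. Over all 5 tested silent subunits, Kcnv1 and Kcng3 included, 3 were higher and 2 lower at 4 days. At 1 day 5 of 5 were higher, with a median of 0.02, beside 41.2% of all tested genes. Without the 2 least typical arrays 4 of the 5 were higher at 1 day.

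The K2P leak channels were higher at 4 days in 6 of 7 tested genes, and in 5 of 7 after median centring. Of all tested genes 56.4% were higher at that time. Kcnk2, the stretch- and lipid-sensitive channel TREK-1, was 9.86, 9.73, 9.75 and 9.71 in DMSO and 9.72, 9.97 and 10.02 in celastrol. Its difference of 0.14 (SE 0.0675) came from 2 of 3 celastrol arrays. Kcnk4, the related TRAAK, was 9.21, 9.17, 9.30 and 9.23 against 9.33, 9.32 and 9.33, without overlap and higher by 0.10 (exact permutation p 0.0571). Kcnk3 was higher by 0.09 and Kcnk12, which is known as a silent K2P, lower by 0.11.

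Of the 5 tested Kir genes 1 was higher and 4 lower at 4 days, with a median of -0.01, and none was called. Kcnj10 was 12.11, 12.06, 12.04 and 12.08 in DMSO and 12.03, 11.94 and 11.99 in celastrol, lower by 0.09 without overlap (exact permutation p 0.0286). Of 12 astrocyte markers 4 were higher at that time, with a median difference of -0.01. Of 10 tested oligodendrocyte markers 2 were higher, with a median of -0.03. Of 9 tested microglial markers 8 were higher, with a median of 0.19. The part of any of these cell types in the values was not tested. Kcnj16, which joins Kcnj10 in mixed channels, was lower by 0.06. Kcnip2 was 9.17, 9.13, 9.10 and 9.19 in DMSO and 9.00, 8.97 and 9.08 in celastrol, without overlap. Its difference was -0.13 (SE 0.0556, 95% interval -0.24 to -0.01; exact permutation p 0.0286), and all 4 KChIP genes were lower, also after each rescaling.

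Among Kv pores at 4 days, Kcnd3 was lower by 0.08, at 10.50, 10.50 and 10.63 against 10.62, 10.61, 10.71 and 10.56. Kcna3, a Kv1 pore known from lymphocytes and microglia, was 10.46, 10.46, 10.49 and 10.54 in DMSO and 10.40, 10.44 and 10.44 in celastrol, lower by 0.06 without overlap (exact permutation p 0.0571). In all, 5 of 49 genes, or 10.2%, had groups without overlap at 4 days, against 6.33% of all tested genes; 2 were higher and 3 lower in celastrol. The adjusted p by limma was 1.00 for each named gene of this time.

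**Figure D4:**
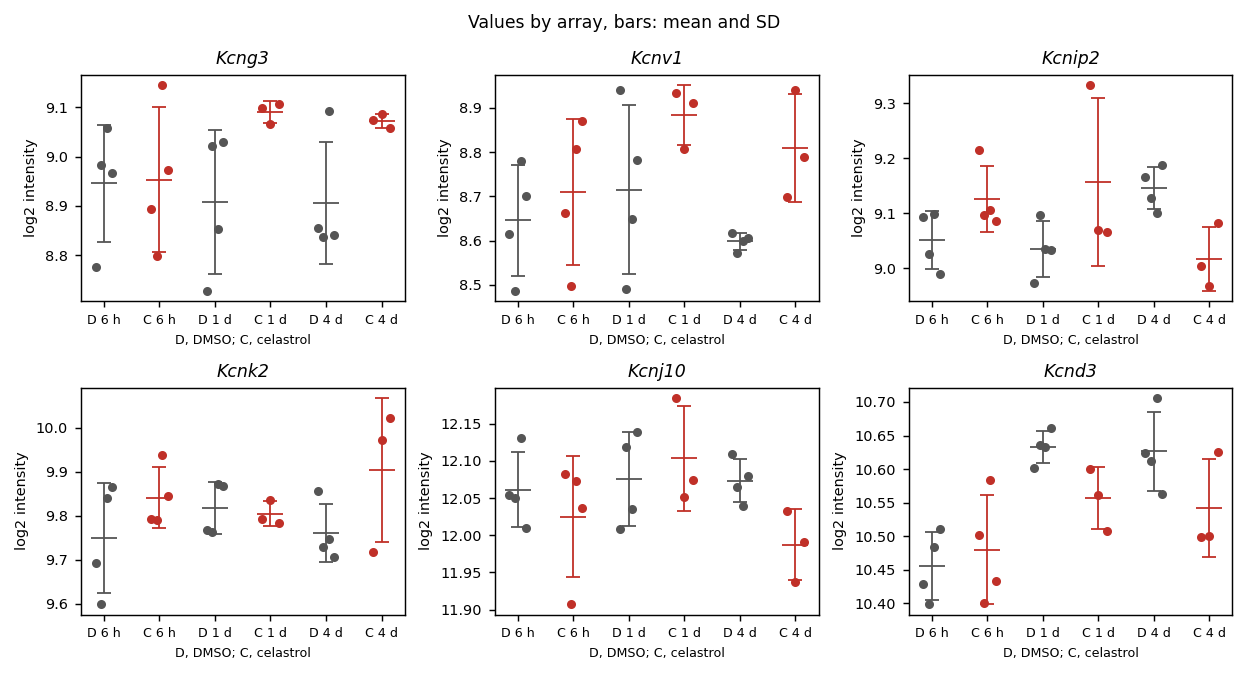
Log2 intensity of Kcng3, Kcnv1, Kcnip2, Kcnk2, Kcnj10 and Kcnd3 in each array (points), with group mean and SD (bars), for DMSO (D, grey) and celastrol (C, red) at each time. Kcng3 and Kcnv1 have higher celastrol means at 1 day and 4 days by 0.17 to 0.21, and the Kcnip2 celastrol mean is above DMSO at 1 day and below it at 4 days.

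Averaged over the 3 times, the 2 genes at an unadjusted p under 0.05 were both silent Kv subunits. Kcnv1 was higher by 0.15 (SE 0.0511, 95% interval 0.04 to 0.25), with 9 of 10 celastrol arrays above the DMSO mean of their time and an adjusted p of 0.948 by limma, which ran from 0.232 to 1.00 over the alternatives. Kcng3 was higher by 0.12 (SE 0.0458, 95% interval 0.02 to 0.21), with 8 of 10 arrays above and an adjusted p of 1.00.

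The next genes on the average were Kcnn2, a small-conductance calcium-activated channel, at 0.08 (8 of 10 arrays above), Kcnk2 at 0.07 (7 of 10) and Kcnh1 at 0.05 (8 of 10). Kcnd3 and Kcnip3, a Kv4 pore and a Kv4 partner, were both at -0.05, with 2 and 3 of 10 arrays above. The gene with the smallest p in each other family was closer to 0: Kcnc1 at 0.04, Kcnab2 at 0.03, Kcnb2 at 0.03, Kcne1l at 0.03, Kcna2 at 0.02, Kcnq3 at 0.02, Kcnj10 at -0.03 and Kcnmb4 at -0.04. Kcnip4 was at -0.03. In all, 32 genes were higher and 17 lower, with a median of 0.01, while 56.3% of all tested genes were higher, with a median of 0.00.

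The intervals show, gene by gene, how large a difference these arrays could have missed. Each interval holds for its own gene, so their extremes are not a joint bound for the 49 genes. On the average, the 95% intervals of the 49 genes reached from -0.15 (Kcns3) to 0.25 (Kcnv1), the upper end being 1.19-fold, and 48 of 49 lay within 0.25 of 0. At the single times 47 did so at 6 h, 39 at 1 day and 39 at 4 days, and at each of them all 49 lay within 0.5 of 0, or 1.41-fold. The widest upper ends were 0.36 for Kcna4 at 6 h, 0.36 for Kcnv1 at 1 day and 0.40 for Kcnv1 at 4 days, or 1.32-fold. Array values compress true fold changes, most of all near background, so these interval ends apply to the deposited scale.

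**Figure D5:**
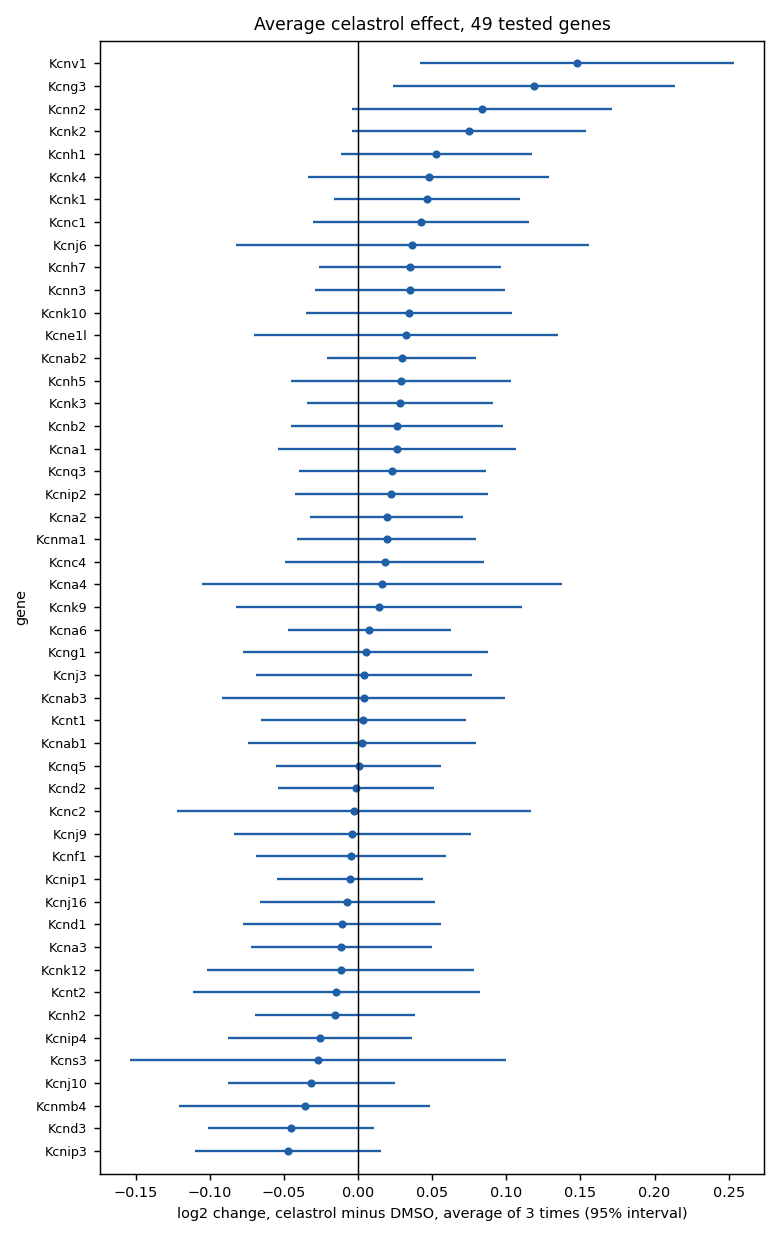
Log2 difference, celastrol minus DMSO, averaged over the 3 times, for the 49 tested genes (rows), with 95% intervals (lines). Of the 49 intervals, 2 do not cross 0, those of Kcnv1 (0.15) and Kcng3 (0.12), and neither gene passed the adjusted threshold.

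The celastrol difference was also compared between times. The labels give a dose only for 6 h, so the length of the course cannot be told apart from dose or collection. Of the 49 genes 0 were called in each of the 3 comparisons (0%, 0% and 0% of all genes). At an unadjusted p under 0.05 there were 1 for 1 day against 6 h, 1 for 4 days against 6 h and 2 for 4 days against 1 day, beside 8.27%, 3.38% and 6% of all genes. Kcnip2 had the smallest p in both comparisons of 4 days. Its celastrol difference was 0.07 at 6 h, 0.12 at 1 day and -0.13 at 4 days, which gives -0.25 for 4 days against 1 day (SE 0.0786, 95% interval -0.41 to -0.09; adjusted p 0.754 by limma) and -0.20 against 6 h (adjusted p 0.997).

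Its DMSO arrays also differed between these times, with values of 8.97 to 9.10 at 1 day and 9.10 to 9.19 at 4 days. Kcna2 gave -0.15 for 4 days against 1 day (adjusted p 0.814). Kcnab1 gave -0.22 for 1 day against 6 h (adjusted p 0.581) and Kcna4 gave -0.27. Kcnab3 gave -0.23 for 4 days against 6 h.

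The DMSO arrays were then compared among themselves, which shows how far the genes varied with vehicle, collection and time alone. Here too 0 of 49 genes were called, against 0% of all genes for 1 day against 6 h, 0.253% for 4 days against 6 h and 0.152% for 4 days against 1 day. At an unadjusted p under 0.05 there were 5, 6 and 9 genes, or 10.2%, 12.2% and 18.4%, against 14.1%, 15.3% and 14.7% of all genes. These counts exceeded those between celastrol and DMSO, for the 49 genes as for all genes; that excess was not tested.

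Kcnd3 had the smallest p in both comparisons of later DMSO arrays with 6 h. It was 10.43, 10.40, 10.48 and 10.51 at 6 h, 10.60, 10.64, 10.63 and 10.66 at 1 day and 10.62, 10.61, 10.71 and 10.56 at 4 days, so the 6 h arrays were below all later ones, as they also were for Kcnab1 and Kcnq5. The difference was 0.18 at 1 day (SE 0.0442, 95% interval 0.09 to 0.27; unadjusted p 5.9e-04 and adjusted p 0.104 by limma) and 0.17 at 4 days (adjusted p 0.103). The celastrol values of 1 day and 4 days, though below DMSO in the mean, were near or above the DMSO values of 6 h.

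Other genes with vehicle differences belonged to several families. Kcnq5, of the M-current, was 10.07, 10.08, 10.13 and 9.97 at 6 h and 10.22, 10.16, 10.27 and 10.14 at 4 days, higher by 0.13 (adjusted p 0.183). Its relative Kcnq3 was 10.45, 10.58, 10.50 and 10.39 at 6 h and 10.26, 10.40, 10.40 and 10.28 at 1 day, lower by 0.15 (adjusted p 0.212). Kcnk1, a K2P channel, was 10.57, 10.46, 10.48 and 10.46 at 1 day and 10.40, 10.34, 10.29 and 10.36 at 4 days, lower by 0.15 without overlap (adjusted p 0.182). Kcna2 was higher by 0.12 at 4 days than at 1 day (adjusted p 0.194). Groups without overlap were seen for 3 genes for 1 day against 6 h, 6 for 4 days against 6 h and 4 for 4 days against 1 day, or 6.12%, 12.2% and 8.16%, against 5.98%, 7.56% and 9.8% of all genes.

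Tissue markers also differed between these groups. Of 7 tested thalamic markers 0 were higher at 1 day than at 6 h, with a median of -0.19, and 0 at 4 days than at 6 h, with a median of -0.23. Of 5 tested pituitary markers 1 and 0 were higher, with medians of -0.36 and -0.45. Oligodendrocyte markers differed the other way, with 8 of 10 higher at 1 day (median 0.10) and 9 of 10 at 4 days (median 0.09). Of all tested genes 64.4% were higher in DMSO at 1 day than at 6 h, and 66.1% at 4 days than at 6 h. At 1 day 0 of the 7 thalamic markers were higher in celastrol than in DMSO, with a median of -0.17. Their part in the differences between the DMSO groups, and in those at 1 day, was not tested.

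The other genes of membrane excitability were described from 3 lists. Of 14 partners of potassium channels, 11 were tested and 0 called at any time; on the average 7 were higher, with a median of 0.00. Abcc9, a sulfonylurea receptor that forms KATP channels with Kcnj8 or Kcnj11, was higher by 0.11 on the average (SE 0.0320, 95% interval 0.04 to 0.17; unadjusted p 0.00277 and adjusted p 0.596 by limma) and by 0.14 at 4 days. Abcc9 was close to the level filter: it was above the array median in 5 arrays, where 3 were needed. The filter counted arrays of either treatment, so higher celastrol values could themselves have helped Abcc9 to pass. Its DMSO mean was 8.50 (8.35 to 8.63), below the array medians of 8.58 to 8.66. Its pores Kcnj11 and Kcnj8, which were dim, had DMSO means of 8.43 and 8.45. Both pores were at 0.00 on the average, and Abcc8, the neuronal sulfonylurea receptor, at -0.00. Abcc9 is also a known pericyte gene; of 6 tested pericyte and smooth muscle markers 2 were higher on the average, with a median of -0.01, and 5 at 4 days, with a median of 0.08, and their part in the value was not tested. Of 3 tested HCN channels, which carry the pacemaker current, 0 were called, and 1 was higher on the average with a median of -0.04; Hcn2 was at -0.05. Of 21 tested sodium and calcium channel genes 0 were called and 15 were higher on the average, with a median of 0.02; Cacna1c, an L-type calcium channel, was at 0.05.

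The 39 dim genes were fitted in the alternative without the level filter, over 18704 genes, and 0 of them were called at any time, against 0%, 0.00535%, 0.016% and 0.0374% of all genes of that fit at 6 h, 1 day, 4 days and on the average. Their average differences ran from -0.14 (Kcnj14) to 0.11 (Kcna10). At an unadjusted p under 0.05 there were 2 at 6 h, Kcnj14 at -0.40 and Kcne1 at -0.19, and 3 at 1 day, Kcnh3 at 0.19, Kcne3 at 0.21 and Kcns2 at -0.18. At 4 days there was 1, Kcne3 at -0.23, which had been higher at 1 day, and on the average 1, Kcna10. The shares of the 39 were 5.13%, 7.69%, 2.56% and 2.56%, beside 4.01%, 5.51%, 4.03% and 3.58% of all genes. These were chosen after their values were seen. Kcnk13, a K2P channel of microglia, was at -0.03 on the average, and Kcne2, a partner known from choroid plexus, was dim at 6.92 to 7.18 in DMSO.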

How the data were processed

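Per the labels' protocols, Trizol-extracted total RNA was column-purified, and biotin label was added with whole-transcript reagents. Per the submitters' processing notes the authors made the values with RMA, and the deposited unit is log2 intensity; no source used here names the RMA version or array library. RMA quantile-normalizes arrays, so a shift shared by most genes is removed. The table held 23492 probe sets, its values ran between 3.83 and 15.2, and 0 of its columns went unused.

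Platform symbols gave 20228 probe sets with 1 symbol, 1399 with several and 1865 with none; the probe set with the highest mean stood for a gene with several. A gene was tested where 3 or more arrays of either treatment put it above the array median, which held for 9880. A further gene with such a symbol is not reported here. Groups were read from the labels. A model of 6 group means over the 22 arrays was fitted in R 4.3.3 by lmFit and eBayes of limma 3.58.1 (two-sided; degrees of freedom 16 residual plus 6.06 prior; residual SD 0.0758 in the median), with Benjamini-Hochberg adjustment at 0.05 over all tested genes. Exact permutation tests, two-sided, exchanged labels within a time, with 0.0286 the smallest p they can give. There is no read depth for arrays; the number of arrays limits the precision.

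The members, families, 18 gene lists and named genes were chosen with earlier results of these data known. The text names, at each time and on the average, the 5 higher and 5 lower tested members with the smallest p; in each family the member with the smallest p on the average and those with the highest and lowest DMSO level; and for other contrasts the 2 with the smallest p. Genes named for groups without overlap, Abcc9's pores, Kcnc2 and the dim genes were added after their values were seen. Alternatives were other level filters (none, or 11 arrays), probe sets averaged or tested singly, median centring or quantile normalization again, robust eBayes or limma-trend, weighted arrays, a block for the replicate number, fits of the compared groups alone, each array left out and, chosen after seeing the data, exclusion of the 2 arrays least like their group, which were celastrol replicate 2 and DMSO replicate 1 of the 1 day groups. Promoter sequences came from RefSeq (GRCm38.p6), counted in Python 3.11.15; figures used matplotlib 3.10.9.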

Additional observations from a re-analysis of the deposited data

Results flagged for a closer look

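In 6 of the 120 groups of 4 arrays checked over the 30 named genes, or 5%, 1 array stood apart from the other 3 by Dixon's criterion, which chance alone meets in about 1 of 20 groups. Kcng3 was 9.09 in DMSO 4 days replicate 3, against 8.84 to 8.85 in the other arrays of that group, and so at the level of the celastrol arrays of that time. Kcnip2 was 9.22 in celastrol 6 h replicate 1, against 9.09 to 9.11 in the others. Kcnab1 was 9.69 in DMSO 1 day replicate 2, against 9.81 to 9.83. Kcnh1 was 10.39 in celastrol 6 h replicate 4, against 10.50 to 10.52. Kcnj9 was 8.51 in celastrol 6 h replicate 1, against 8.62 to 8.64. Kcnk1 was 10.57 in DMSO 1 day replicate 1, against 10.46 to 10.48.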

How the results depend on the processing

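In all 34 alternatives, where each could be run, 0 of the tested potassium channel genes were called in any contrast. Of 1947 values of named genes under alternatives, 1943 kept their direction and their side of the threshold. Kcnip4 on the average turned to 0.0007 and Kcne1l to -0.0121 with array weights, a fit that stopped before reaching its tolerance. With each array left out in turn, Kcnj10 at 6 h ran from -0.0555 to 0.0028 and Kcne1l on the average from -0.0017 to 0.0587. The median over members at 1 day ran from 0.0002 to 0.0348 with each array left out, the lowest value being without celastrol 1 day replicate 2. The median between DMSO 1 day and 6 h moved to -0.0242 with quantile normalization again, and that between DMSO 4 days and 6 h to 0.0066 with no filter on level; the cause was not tested.

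The counts at an unadjusted p under 0.05 depended on the setting and on single arrays. With array weights they were 4 at 6 h, 6 at 1 day, 5 at 4 days, 4 on the average, 9 for DMSO 1 day against 6 h and 10 for DMSO 4 days against 6 h. With only the groups compared the count at 1 day was 1, and with quantile normalization again that on the average was 4. Excluding the 2 least typical arrays gave 5 at 4 days and 4 for DMSO 4 days against 1 day. At 1 day the count of 3 became 7 without celastrol replicate 2, and 1 without celastrol replicate 1 or DMSO replicate 1 or 3. At 4 days the count of 3 became 1 without celastrol replicate 2 or DMSO replicate 2 or 4. At 6 h the count of 0 rose to 4 without celastrol replicate 1, 3 without DMSO replicate 3 and 1 without celastrol replicate 2 or DMSO replicate 2. On the average the count of 2 became 5 without DMSO 6 h replicate 3 and 4 if celastrol replicate 2 of 1 day or replicate 1 of 4 days was left out. Between DMSO groups, the 9 genes of 4 days against 1 day became 4 without DMSO 1 day replicate 1 and 12 without DMSO 1 day replicate 2. The 5 of 1 day against 6 h became 3 without DMSO 6 h replicate 4. Those of differences between times, all small, ran from 0 to 6. The lowest adjusted p in any alternative was 0.0587, for Kcnk9 between DMSO 4 days and 6 h without DMSO 6 h replicate 3. With the replicate block, 0 genes were called and the Kcnab2 difference at 6 h was 0.07. Over 10 pairs of same-numbered DMSO and celastrol arrays of the same time, residuals correlated from -0.24 to 0.41. Of these, 2 were above 0.1, both at 6 h. With 3 or 4 arrays in a group, these values cannot decide whether the numbers paired the samples. Fits of only the groups compared were not run for the average. The number of arrays limits what could be resolved, and the 39 dim genes most of all.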
